A study of Bruguiera gymnorhiza with 19 samples.

Results

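The probes described here detected transcripts of Burma mangrove (*Bruguiera gymnorhiza*) leaves that were lower after 6 h of stress than both before it and after 24 h, in NaCl and in sorbitol alike. They were chosen by their measured values: on log2(intensity + 50), quantile-normalized over 18 arrays, the highest of the 6 group means had to be at least 9.5, and the 6 h mean had to lie at least 0.7 below the 0 h mean and the 24 h mean of the same series, in both series. Of 11997 mangrove probes, 44 met these limits. The level limit alone left 5184 probes, among which 126 dipped at 6 h in NaCl and 114 in sorbitol, so that the 44 are 34.9% of the NaCl list and 38.6% of the sorbitol list. The 4 differences used for the choice are given below as a description, without a test.

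Plants 3 years and 7 months old, grown at 25 °C with 12 h of light and 12 h of darkness, had their culture water replaced by 500 mM NaCl or by 1 M sorbitol, which the labels spell Solbitol. Leaves were taken just before the change (0 h) and after 6 h and 24 h, and the 6 groups held 3 samples each, A, B and C, with 1 RNA (NaCl 0 h C) hybridised to a repeat array. The letters are those of the sample titles, and for NaCl 6 h C and NaCl 24 h C another label gives a different replicate number or letter. The samples are labelled biological replicates without saying whether they came from separate plants. The p-values therefore cover only the variation among these 3 arrays per group, whose number limits the precision. Both 0 h groups were untreated and leaves kept without stress for 6 h or 24 h were not analysed here, so an effect of treatment and an effect of the time of day cannot be told apart: 0 h and 24 h fall at the same clock time and 6 h at another. In whole leaves, fewer cells of a type and less RNA per cell cannot be told apart either.

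Salt in the root medium lowers the water potential and also brings sodium and chloride ions into the plant, whereas sorbitol, an uncharged sugar alcohol, lowers the water potential without those ions. Leaves of many plants answer either one within hours by closing stomata, slowing growth and changing the levels of many transcripts, some of which later return toward their earlier level. Many leaf transcripts also rise and fall over the day under the circadian clock. The files name the probes by clone (Bg) or contig (CL) with the first and last base of the probe, and pair them with sequences and not with genes, so each member is given here by its identifier and sequence only.

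Among the 44 members, 5 fell into 2 sets of sequences that share 20 or more consecutive bases. These sets are shown first because probes that overlap measure 1 transcript, or near-identical transcripts, more than once. Another pair, whose overlap is broken by 1 extra base, is shown near the end. In the first set, which includes the deepest dip of all, a run of 30 bases was common to 3 probes, and the pairs shared 33, 32 and 30 consecutive bases. In the second set 31 bases were common to 2 probes. No probe outside the 44 shared 20 or more consecutive bases with a member. Capitals mark the common run, and the letters stand in the order the files give them, taken as 5′ to 3′.
Bg01-08_I17_100_134: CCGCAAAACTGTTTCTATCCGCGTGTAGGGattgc
Bg02-09_D21_98_132: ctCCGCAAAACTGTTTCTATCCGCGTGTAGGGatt
CL776Contig1_95_129: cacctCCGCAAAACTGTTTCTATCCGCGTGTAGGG
Bg05-08_N04_176_213: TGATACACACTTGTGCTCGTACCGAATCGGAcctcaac
CL1167Contig1_222_256: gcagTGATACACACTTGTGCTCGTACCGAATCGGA

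The other deepest members and the remaining members called in a comparison of 24 h with 0 h are shown next, since the sequence is the only identity these probes have here. The first 3 belong to the 6 deepest dips, and the last 7 were called in such a comparison, as were Bg05-21_D01_228_265, Bg01-04_G19_137_171 and, of the first set, Bg02-09_D21_98_132.
Bg01-08_E03_225_259: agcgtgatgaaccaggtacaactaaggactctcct
Bg05-21_D01_228_265: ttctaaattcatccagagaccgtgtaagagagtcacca
Bg01-04_G19_137_171: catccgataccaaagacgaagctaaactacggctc
Bg05-09_J17_41_79: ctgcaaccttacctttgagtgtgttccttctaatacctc
Bg04-19_L21_257_291: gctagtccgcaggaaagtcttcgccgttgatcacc
Bg03-06_P02_217_251: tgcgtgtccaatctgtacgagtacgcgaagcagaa
Bg01-04_B14_18_52: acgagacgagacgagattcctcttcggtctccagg
Bg05-07_P19_209_243: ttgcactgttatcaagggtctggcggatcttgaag
CL182Contig1_441_475: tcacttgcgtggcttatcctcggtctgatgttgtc
Bg02-02_A21_405_439: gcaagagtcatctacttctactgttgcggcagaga

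The dip ranged from slight to more than 10-fold. The mean of the 4 differences ran from -3.79 to -0.90 with a median of -1.63, against -0.01 over the 5184 probes at or above the level limit. It was -3 or lower for 6 members, between -3 and -2 for 7, between -2 and -1 for 29 and above -1 for 2. At 6 h the intensity plus 50 was 1.71 to 10.9 times lower than at 0 h in NaCl (median 2.80) and 1.81 to 21.1 times lower in sorbitol (median 3.39), a scale that understates the change of dim probes. The median of the members' 0 h means was 11.28, against 10.23 over the 5184 probes, which compares the brightness of spots and not amounts of transcript.

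The arrays differed in brightness. On NaCl 6 h C and sorbitol 0 h C, 6 h C and 24 h C, the arrays of lowest signal, 2126 to 3216 of the 11997 probes had an intensity of 0, among them 3 members on sorbitol 6 h C and 1 on sorbitol 24 h C, against 0 to 54 probes on the other 14. Without these 4 arrays 55 probes met the rule, 40 of them among the 44. Between 6382 and 8236 probes per array were above the 95th percentile of the negative control spots, called detected here, and 8642 probes detected on at least 3 of the 18 arrays, all 44 members included, entered the tests.

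As a mean over the 44, each member's deviation from its own average over the 18 samples was 0.76, 0.44 and 0.61 in NaCl 0 h A, B and C, -1.16, -1.34 and -0.87 at 6 h and 0.80, 0.90 and 0.92 at 24 h. In sorbitol the mean deviation was 0.61, 0.79 and 0.74 at 0 h, -1.45, -1.31 and -1.18 at 6 h and 0.41, 0.22 and 0.12 at 24 h. The 6 h samples lay apart from the other 12, as the rule requires of the means, and the sorbitol 24 h samples were the lowest of those 12.

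The deepest dip was that of Bg01-08_I17_100_134, a probe of the first sequence set. Its log2 values in samples A, B and C of the NaCl series were 12.30, 11.94 and 12.49 at 0 h, 8.68, 8.34 and 9.38 at 6 h and 12.89, 12.24 and 12.38 at 24 h. In sorbitol they were 12.98, 13.23 and 12.39 at 0 h, 8.88, 8.30 and 8.22 at 6 h and 12.24, 11.85 and 12.13 at 24 h. All 6 samples at 6 h lay more than 2 log2 units below all 12 others, and the 6 h level was 10.9 times lower than 0 h in NaCl and 21.1 times lower in sorbitol. At 6 h this probe was detected on 2 of 3 arrays in each series, so these folds are uncertain. For the second probe of that sequence, Bg02-09_D21_98_132, the NaCl values were 12.28, 11.97 and 12.80 at 0 h, 9.18, 8.84 and 9.40 at 6 h and 13.07, 12.74 and 12.49 at 24 h. The sorbitol values of this probe were 13.02, 13.33 and 12.76 at 0 h, 8.87, 8.89 and 8.51 at 6 h and 12.26, 11.81 and 12.43 at 24 h. No 6 h sample reached any sample of the other times here either. Probe CL776Contig1_95_129 read 13.00, 12.27 and 12.33 at 0 h, 9.61, 9.63 and 9.85 at 6 h and 12.95, 12.49 and 12.75 at 24 h in NaCl. Its samples in sorbitol read 13.23, 13.30 and 12.36 at 0 h, 9.31, 9.62 and 9.56 at 6 h and 12.29, 12.00 and 12.43 at 24 h. Its 6 h samples, too, were all more than 2 units below the rest. The spots of Bg01-08_I17_100_134 and Bg02-09_D21_98_132 are neighbours in row 102 of the array, and that of CL776Contig1_95_129 is in row 153.

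The second sequence set dipped less. Probe Bg05-08_N04_176_213 gave 11.37, 10.98 and 11.32 at 0 h, 9.78, 9.33 and 9.72 at 6 h and 11.76, 11.67 and 11.97 at 24 h in NaCl. In sorbitol the same probe gave 11.55, 11.55 and 11.18 at 0 h, 9.86, 9.26 and 9.89 at 6 h and 11.56, 11.32 and 11.88 at 24 h. Its 6 h samples were the lowest of each series. The partner CL1167Contig1_222_256 had NaCl values of 10.89, 10.17 and 10.17 at 0 h, 9.61, 9.21 and 9.41 at 6 h and 11.37, 11.06 and 11.23 at 24 h. The partner's sorbitol values were 10.55, 10.70 and 10.82 at 0 h, 9.49, 8.49 and 9.12 at 6 h and 11.01, 10.69 and 11.56 at 24 h. Again every 6 h sample was below every 0 h and 24 h sample of its series. Within groups, too, the probes of a set moved together: over the 18 samples, after the group means were removed, the correlation was 0.80 for Bg01-08_I17_100_134 with Bg02-09_D21_98_132, 0.53 and 0.42 for these with CL776Contig1_95_129, and 0.72 for the second set. The median over all 946 pairs of members was 0.09, a description of values that share arrays and RNA.

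The remaining 3 of the 6 deepest dips had no second probe. Bg01-08_E03_225_259 read 11.68, 10.96 and 10.77 at 0 h, 8.11, 7.53 and 8.39 at 6 h and 11.89, 12.06 and 11.19 at 24 h in NaCl. In sorbitol it read 11.06, 11.12 and 10.82 at 0 h, 6.96, 7.37 and 8.42 at 6 h and 10.55, 10.49 and 10.88 at 24 h. The 6 h samples of this probe stayed below all others in both series. It was detected on 2 of 3 arrays at NaCl 6 h and on 1 of 3 at sorbitol 6 h. Bg05-21_D01_228_265 gave 11.62, 11.36 and 11.56 at 0 h, 8.03, 8.01 and 9.26 at 6 h and 11.88, 12.18 and 12.63 at 24 h in the NaCl samples. The sorbitol samples gave 11.40, 12.19 and 12.29 at 0 h, 7.90, 8.12 and 8.29 at 6 h and 11.17, 11.24 and 7.95 at 24 h. Here sorbitol 24 h C alone lay among the 6 h samples, while A and B of that group were more than 2 units higher. Bg05-21_D01_228_265 was detected on 2 of 3 arrays at NaCl 6 h, 1 of 3 at sorbitol 6 h and 2 of 3 at sorbitol 24 h. The NaCl values of Bg01-04_G19_137_171 were 11.16, 10.40 and 10.16 at 0 h, 7.53, 7.65 and 7.70 at 6 h and 10.90, 11.01 and 11.47 at 24 h. Those in sorbitol were 10.95, 10.86 and 10.90 at 0 h, 7.19, 7.03 and 7.31 at 6 h and 10.16, 10.08 and 7.18 at 24 h. This probe was not above the negative control spots on any 6 h array, so its folds are bounds: the level was at least 5.33-fold higher at NaCl 0 h and at least 7.86-fold higher at NaCl 24 h than at NaCl 6 h, and at least 6.96-fold higher at sorbitol 0 h and at least 2.05-fold higher at sorbitol 24 h than at sorbitol 6 h. Sorbitol 24 h C, again, had the 6 h level.

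Over all members, every NaCl 6 h sample was below every NaCl 0 h sample for 43 of 44 (17.2% of the 5184 probes did so) and below every NaCl 24 h sample for 44 (11.6%). In sorbitol the 6 h samples were wholly below 0 h for 41 (9.03%) and wholly below 24 h for 36 (13.1%). For 33 members all 4 held, against 1.04% of the 5184 probes, and since the rule chose on these differences nothing is read from the counts. Of the 8 members whose sorbitol 6 h and 24 h samples overlapped, 7 were apart once sorbitol 24 h C was set aside. On 0 h arrays 43 or 44 of the 44 members were above the negative controls, on 6 h arrays 30 to 40 and on 24 h arrays 40 to 44. Members with no 6 h signal above the controls were 4 in NaCl and 4 in sorbitol, and Bg01-04_G19_137_171 and Bg04-05_M06_225_259 were in both. No member was saturated on any array.

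The members were spread unevenly over the array, and some sorbitol values moved with position. With the 224 rows split into 4 blocks of 56, the arrays held 3, 10, 17 and 14 members from top to bottom, whereas the 5184 probes were spread as 1415, 1284, 1265 and 1220. Dips in NaCl followed that slope, with 9, 25, 44 and 48 probes, and dips in sorbitol did not, with 30, 27, 30 and 27. Without the 4 arrays of lowest signal, dips by block numbered 7, 29, 71 and 85 in NaCl. In sorbitol they then numbered 22, 27, 28 and 111, so the even spread of sorbitol dips did not hold there. The probes meeting the rule in that setting numbered 3, 14, 18 and 20 by block. On NaCl 0 h A the median deviation of the 5184 probes from their own means ran from -0.51 in the top block to 0.44 in the bottom block, and on NaCl 6 h B from 0.37 to -0.09. When the median deviation of each band of 14 rows was removed from each array, 45 probes met the rule, 37 of them among the 44, and dips in NaCl numbered 27, 27, 24 and 24 by block. The members then numbered 7, 8, 15 and 15.

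Low values on sorbitol 24 h C were concentrated in the last 32 rows, where 10 members lie. There 37.6% of the 663 probes at or above the level limit were more than 1 log2 unit below both other samples of the group on that array, against 0.575% elsewhere. The same held for 8 of the 10 members in those rows and for 0 of the other 34. On sorbitol 6 h A the shares were 20.7% and 2.21%, with 4 of the 10 members low. With both arrays left out, 46 probes met the rule, 40 of them among the 44, and 9 of the 10 members of the last rows still met it. The tenth, Bg04-29_A04_75_109, named after its values were seen, read 8.41, 7.91 and 11.33 at sorbitol 24 h, and without both arrays its sorbitol 6 h minus 24 h difference was -0.12.

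The repeat array of NaCl 0 h C, which the rule did not use, measured the RNA of a sample the rule used, so its distance from the 6 h samples was largely set by the choice of members and is a description only. Mapped to the quantiles of the 18 arrays, it lay above all 3 NaCl 6 h samples for 44 of 44 members (30.2% of the 5184 probes), and for 42 under median scaling. It exceeded the NaCl 6 h mean by 0.41 to 4.09 (median 1.80), by 0.7 or more for 41. Repeat minus first array had a median of 0.13 over the members and 0.03 over the 5184 probes, and 41 members were within 0.5.

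Dip depth, the 6 h mean minus the average of the 0 h and 24 h means, was set side by side for both treatments. Across the 44 members the depths in NaCl and sorbitol had a Pearson r of 0.821, a description of members chosen for dipping in both. Depths ran from -3.57 to -0.82 in NaCl (median -1.55) and from -4.005 to -0.81 in sorbitol (median -1.58). The dip was deeper in NaCl for 25 and in sorbitol for 19, and 34 differed by at most 0.5, but 29 were deeper in sorbitol under median scaling and 27 with row bands levelled, so neither direction held throughout. The difference of depths was called for 0 of 44 members by limma (0.081% of 8642 probes tested), with 3 at an unadjusted p under 0.05 (17.5% of all probes tested). Both depths are built from the 4 differences the rule used, so these counts depend on the choice of members. Nothing is read from them. The largest differences in each direction were those of Bg01-01_G18_193_227, deeper in NaCl, with a difference of -1.20 (95% interval -1.82 to -0.58, limma adjusted p = 0.0926), and Bg01-05_H10_161_195, deeper in sorbitol, with a difference of 0.67 (-0.07 to 1.41, limma adjusted p = 0.334). Bg01-01_G18_193_227 was not above the negative controls on any NaCl 6 h array, so its NaCl depth and this difference are uncertain. Its level was at least 2.90-fold higher at NaCl 0 h and at least 3.69-fold higher at NaCl 24 h than at NaCl 6 h. Standard errors of the difference ran from 0.27 to 0.81 (median 0.35), so differences near 1 log2 unit could go uncalled.

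The untreated groups of both series gave no called difference for the members. NaCl 0 h minus sorbitol 0 h ran from -0.69 to 0.55 over the 44, with 0 called by limma (0.937% of 8642) and 1 at an unadjusted p under 0.05 (16.3% of all probes tested). That one was Bg02-09_D21_98_132, at -0.69 (SE 0.27, limma adjusted p = 0.21). The median was -0.11 (-0.01 over all probes). Under median scaling it was -0.60, with all probes at -0.16.

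After 24 h the members stood on balance above their 0 h level in NaCl and below it in sorbitol. Both times entered the rule, each against 6 h, so this comparison is not independent of the choice of members, although the rule asked the same of 0 h and of 24 h and did not set which was higher. In NaCl 35 of 44 were higher at 24 h than at 0 h (52.3% of all probes tested) with changes from -0.98 to 1.38 and a median of 0.26 (0.03 over all). In all, 3 were called, 2 higher and 1 lower, against 4.59% of the 8642 probes (2.09% higher and 2.5% lower). In sorbitol 12 of 44 were higher (51.6% of all) with changes from -2.29 to 1.01 and a median of -0.35 (0.02 over all), and 9 were called, 1 higher and 8 lower, against 9.62% of the 8642 (4.93% higher and 4.69% lower). The group means moved above 0 h in NaCl and below it in sorbitol for 24 members, as for 22.3% of the 5184 probes, and the other way round for 1. Every NaCl 24 h sample was above every NaCl 0 h sample for 11 members (17% of the 5184 probes), and every sorbitol 24 h sample below every sorbitol 0 h sample for 16 (18.7%).

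Among members called in NaCl, Bg04-19_L21_257_291 had values of 9.18, 9.04 and 8.91 at 0 h, 8.29, 7.84 and 8.10 at 6 h and 10.54, 10.20 and 10.52 at 24 h. In sorbitol it had 9.58, 9.85 and 8.80 at 0 h, 9.003, 8.39 and 8.26 at 6 h and 10.39, 9.97 and 10.89 at 24 h. It ended above its starting level in both series, with a 24 h minus 0 h change of 1.38 (SE 0.29, limma adjusted p = 0.0127) in NaCl and 1.01 (SE 0.29, limma adjusted p = 0.0317) in sorbitol. The sorbitol change was 0.75 without sorbitol 24 h C, where the call was lost (limma adjusted p = 0.182), and 0.43 without the 4 arrays of lowest signal (limma adjusted p = 0.514). Bg03-06_P02_217_251 gave 11.67, 10.81 and 10.97 at 0 h, 10.05, 10.32 and 10.76 at 6 h and 12.35, 12.19 and 12.08 at 24 h in NaCl. In sorbitol its samples gave 11.28, 11.44 and 11.11 at 0 h, 10.79, 10.27 and 10.15 at 6 h and 11.83, 11.58 and 11.96 at 24 h. All 3 NaCl 24 h samples were above the 0 h samples, and the change was 1.06 (SE 0.27, limma adjusted p = 0.0298). Bg05-09_J17_41_79 read 12.59, 12.28 and 12.50 at 0 h, 9.63, 9.46 and 9.495 at 6 h and 11.26, 11.53 and 11.63 at 24 h in NaCl. Its sorbitol readings were 12.58, 12.25 and 12.38 at 0 h, 8.95, 9.27 and 9.58 at 6 h and 10.60, 10.81 and 10.73 at 24 h. This member recovered only in part: 24 h lay between 6 h and 0 h with no overlap in either series, a change from 0 h of -0.98 (SE 0.22, limma adjusted p = 0.0182) in NaCl and -1.69 (SE 0.22, limma adjusted p = 2.15e-05) in sorbitol. The 3 NaCl calls were all lost under median scaling, in the authors' deposited values and when either NaCl 24 h A or NaCl 0 h B was left out, and only that of Bg04-19_L21_257_291 was left without NaCl 24 h B. The call of Bg03-06_P02_217_251 was lost without NaCl 0 h C or NaCl 24 h C as well, with changes of 0.97 and 1.12.

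In sorbitol the calls next to that of Bg05-09_J17_41_79 were lower levels at 24 h of 3 members. CL182Contig1_441_475, the brightest member at 0 h, had sorbitol values of 14.40, 14.25 and 14.38 at 0 h, 12.11, 12.10 and 12.45 at 6 h and 13.33, 12.58 and 12.87 at 24 h. In NaCl it had 15.02, 14.52 and 14.46 at 0 h, 13.86, 12.72 and 12.94 at 6 h and 15.18, 14.97 and 13.88 at 24 h. After 24 h in sorbitol its samples were below all 0 h samples, a change of -1.42 (SE 0.33, limma adjusted p = 0.00792), while the NaCl samples of 0 h and 24 h overlapped. Bg01-04_B14_18_52 read 12.24, 12.56 and 12.30 at 0 h, 7.91, 9.48 and 9.17 at 6 h and 11.23, 10.88 and 8.12 at 24 h in sorbitol. Its NaCl values were 12.26, 12.16 and 12.41 at 0 h, 8.53, 9.06 and 9.76 at 6 h and 11.58, 11.91 and 11.89 at 24 h. The sorbitol change was -2.29 (SE 0.54, limma adjusted p = 0.00896), but its spot lies in the last rows, and without sorbitol 24 h C the change was -1.30 (limma adjusted p = 0.0418). Bg05-07_P19_209_243 had 11.03, 11.28 and 11.25 at 0 h, 7.63, 8.57 and 8.70 at 6 h and 9.996, 9.67 and 9.83 at 24 h in sorbitol. In NaCl the values were 11.32, 10.69 and 11.18 at 0 h, 8.23, 9.25 and 9.38 at 6 h and 10.73, 11.25 and 11.93 at 24 h. Its sorbitol change was -1.35 (SE 0.34, limma adjusted p = 0.0142), and every sorbitol 24 h sample was below every 0 h sample. Without sorbitol 24 h B the calls of CL182Contig1_441_475 and Bg05-07_P19_209_243 were lost at changes of -1.25 and -1.27, and without sorbitol 0 h B that of Bg05-07_P19_209_243, at -1.31. Both calls were also lost without the 4 arrays of lowest signal, at changes of -1.36 and -1.26 (limma adjusted p = 0.0688 and 0.0826).

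The other 5 called in sorbitol, 4 of them lower, had changes from -1.84 to 1.01. Bg05-21_D01_228_265 and Bg01-04_G19_137_171 changed by -1.84 and -1.76, but without sorbitol 24 h C the changes were -0.75 and -0.78 and neither was called (limma adjusted p = 0.258 and 0.129). Bg02-02_A21_405_439 changed by -0.90 (SE 0.24, limma adjusted p = 0.0227) and was called without that array too. Bg02-09_D21_98_132 of the first sequence set changed by -0.88 (SE 0.27, limma adjusted p = 0.0431), and without that array its adjusted p was 0.0535. Without the 4 arrays of lowest signal (NaCl 6 h C and sorbitol 0 h C, 6 h C and 24 h C), 4 members were called in sorbitol, 3 of them among the 9. These 3 were Bg05-09_J17_41_79, Bg02-02_A21_405_439 and Bg01-04_B14_18_52. Leaving out sorbitol 0 h A or sorbitol 0 h B also left 4, and leaving out sorbitol 24 h B left 5.

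The 24 h change was higher in NaCl than in sorbitol for 39 of 44 members (50.9% of all probes tested), with a median difference of 0.63 (0.01 over all). This difference was tested after its values were seen. No member was called by limma (2.55% of 8642 were), and 16 of the 44 had an unadjusted p under 0.05, against 18.0% of all probes. The differences ran from -0.53 to 2.56 with standard errors of 0.31 to 0.93. The count of 39 stayed between 37 and 39 over 32 other settings. With row bands levelled, 5 members were called, all higher in NaCl, against 317 of all 8642 probes (160 higher, 157 lower). The 5 members were Bg02-09_D21_98_132, Bg05-07_P19_209_243, Bg01-01_G18_193_227, Bg05-09_J17_41_79 and Bg02-03_H05_570_604, with differences from 1.11 to 1.86.

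The member with the lowest 0 h mean was Bg03-07_A05_146_181, at 8.81 over both series. It read 9.34, 9.15 and 8.65 at 0 h, 7.97, 7.76 and 7.94 at 6 h and 9.32, 9.996 and 9.31 at 24 h in NaCl. In sorbitol it read 8.24, 8.79 and 8.71 at 0 h, 7.50, 7.99 and 7.31 at 6 h and 8.63, 8.81 and 8.88 at 24 h. Its 6 h samples were below the others in both series, but no sorbitol 6 h sample was above the negative controls, and the sorbitol 0 h level was at least 1.39-fold higher.

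Just inside the limit of -0.7 lay CL182Contig1_441_475, with differences of -1.49, -1.50, -2.12 and -0.71 (NaCl 6 h minus 0 h and minus 24 h, then the same for sorbitol), and Bg01-01_G18_193_227, with -2.06, -2.41, -1.36 and -0.72. No NaCl 6 h sample of Bg01-01_G18_193_227 was above the negative controls, so the size of its NaCl differences is uncertain. Just outside lay Bg01-03_N08_151_185, with -0.70, -0.98, -0.95 and -1.02, and Bg03-08_B21_42_77, with -0.79, -0.77, -0.69 and -1.04. For both inside, the smallest difference was that of sorbitol 6 h from 24 h, and for those outside a difference from 0 h.

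Beyond the 44, the probes most like their mean profile over the 18 samples were Bg05-19_P23_569_603 (Pearson r = 0.941), Bg01-07_N14_233_267 (0.902), Bg02-03_P11_289_323 (0.888) and CL1261Contig1_681_715 (0.888), given as a description. The first 2 met all 4 differences and missed only the level limit. They were detected on 13 and 11 of the 18 arrays, so the size of their dips is uncertain. The group means at 0, 6 and 24 h of Bg05-19_P23_569_603 were NaCl 9.26 ± 0.40, 7.85 ± 0.11, 9.20 ± 0.14 and sorbitol 9.34 ± 0.24, 7.75 ± 0.33, 8.94 ± 0.24 (SD, n = 3 each). For Bg01-07_N14_233_267 they were NaCl 8.68 ± 0.38, 7.56 ± 0.30, 9.07 ± 0.17 and sorbitol 8.65 ± 0.29, 7.52 ± 0.23, 8.93 ± 0.30 (SD, n = 3 each). Bg02-03_P11_289_323 fell short in NaCl, with a 6 h minus 0 h difference of -0.44, and CL1261Contig1_681_715 in sorbitol, with a 6 h minus 24 h difference of -0.67.

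Members differed from other bright probes in the clone series they came from. Bg01 clones gave 15 of the 44 (34.1%), against 9.20% of the 5184 probes at or above the level limit, and Bg04 clones gave 3 (6.82%) against 31.6%. Among Bg01 probes at that level 29 dipped in NaCl and 30 in sorbitol, of 477, and among Bg04 probes 24 and 17, of 1636. Contigs made up 11 of the 44 (25.0%) against 15.8%. Median GC content was 48.6% in members and in the 5184 alike, and 37 of 44 members were 35 bases long. The mirror rule, 6 h higher by 0.7 or more in all 4 differences, was met by 38 probes, of which 1 was a Bg01 clone.

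Shorter shared runs were looked for after these values were seen. At 14 or more bases 1 further pair of members was found, CL57Contig1_550_584 and Bg01-07_E19_549_583, whose common run is in capitals. After the run both read tttgtactcgt, in Bg01-07_E19_549_583 behind 1 extra c. A search for unbroken runs therefore understates how far the pair overlaps.
CL57Contig1_550_584: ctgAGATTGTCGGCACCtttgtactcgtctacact
Bg01-07_E19_549_583: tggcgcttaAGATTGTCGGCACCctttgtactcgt
The NaCl values of CL57Contig1_550_584 were 14.19, 13.93 and 13.96 at 0 h, 12.40, 12.50 and 12.80 at 6 h and 14.42, 14.72 and 14.08 at 24 h. In sorbitol they were 13.76, 13.63 and 13.98 at 0 h, 9.76, 11.84 and 12.18 at 6 h and 13.64, 14.58 and 10.85 at 24 h, with 6 h A and 24 h C, the arrays with low last rows, far below the rest. Bg01-07_E19_549_583 gave 11.77, 11.91 and 12.88 at 0 h, 10.91, 10.11 and 11.02 at 6 h and 11.90, 12.43 and 12.26 at 24 h in NaCl. In sorbitol, where its 6 h samples were all below the others, it gave 11.61, 11.66 and 12.26 at 0 h, 10.71, 10.61 and 10.67 at 6 h and 12.25, 12.42 and 12.33 at 24 h. Outside the members, 3 probes shared 14 or 15 bases on the same strand, and none met the rule. The nearest to it, Bg05-12_K09_470_504, which shares 14 bases with Bg02-02_K10_751_787, had differences of -1.34, -0.89, -1.86 and -0.54.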

How the data were processed

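Leaf total RNA (1 µg) was amplified to Cy5-labelled cRNA and hybridised to 1-colour oligonucleotide arrays, per the labels' protocols. Each spot has a foreground mean and a foreground median in the deposited files, both linear intensity values per the file headers. Which scanner software made them is not stated in those sources. The authors' deposited table of intensity values has 1 common set of values in 16 columns (median 521) and, for sorbitol 24 h B, sorbitol 24 h C and the repeat array, medians as scanned (11996 of 11997 values on the repeat array), so it serves only as an alternative.

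Foreground means plus 50 were log2 transformed and quantile-normalized over the 18 arrays and the 11997 mangrove probes, as the rule for the members requires. This uniform scale is used for the tests too, because normexp background correction (an alternative) failed on the 4 arrays of lowest signal. Excluded spots (0 to 11 per array, no member) were left out. Probes brighter than the 95th percentile of the 70 negative controls on at least 3 arrays were tested. All 18 samples entered 1 model with 6 group means (limma, lmFit and eBayes), with Benjamini-Hochberg adjustment over the 8642 probes within each comparison and calls at an adjusted p under 0.05. Values of every sample are given for the 6 deepest members, the 4 lowest p among members called in each comparison, members sharing 20 or more bases, and the members of highest and lowest 0 h mean; the 2 members just inside and 2 probes just outside the limit and the 4 most alike other probes are named as well. The members, these lists and the tests were chosen with earlier results of these data known.

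On simulated data of 8642 probes log2 changes of 1, 1.5, 2 and 3, set in 50 probes each, were found for 25, 38, 45 and 50 probes for NaCl 24 h minus NaCl 0 h, with 6 false calls. For the difference of dip depths the numbers found were 8, 33, 44 and 49, with 10 false calls. The simulated noise was normal and independent for each probe and array. It lacked the differences by array position and the low signal of the real arrays, so recovery and false calls there may differ. Planned gene lists were not run because the files name no genes. The analysis used R 4.3.3, limma 3.58.1, Python 3.11.15, numpy 2.4.6 and pandas 2.3.3.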

Additional observations from a re-analysis of the deposited data

How the results depend on the processing

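The rule was met by 40 to 50 probes when 1 sample was left out, by 32 to 55 under the other settings at the same limit, and by 28 with a limit of -1. Members called for NaCl 24 h minus 0 h were 3, but 0 under median scaling, 0 in the authors' deposited values, 7 with row bands levelled, and 0 to 3 when 1 sample was left out. For sorbitol 24 h minus 0 h they were 9, but 11 with row bands levelled and 11 among probes at or above the level limit. They were 3 under median scaling, 1 in the authors' values, 4 without the 4 arrays of lowest signal, and 4 to 10 when 1 sample was left out. The difference of the 24 h changes was called for 0 members, but for 2 with foreground medians, 5 with row bands levelled, and 0 to 2 when 1 sample was left out. The cause was not tested. Same-letter samples had correlations of deviations from -0.29 to 0.48, over 0.1 for 25 of 45 and the highest for the own letter in 22. All 3 letters were over 0.1 in 2 of 15 pairs of groups (sorbitol 0 h with 6 h, and NaCl 6 h with sorbitol 6 h) but not in every pair of any comparison tested, so the letters were not treated as pairs. With the replicate letter as a block that difference was called for 1 member; the block changed no other count of members called. The sign was checked for the changes with the 4 lowest p among members called in each comparison and for the mean dips of the 6 deepest members. None of these changed sign under any setting, but the members' median difference of dip depths did: it was -0.07, but 0.14 under median scaling, 0.08 with row bands levelled, 0.07 when NaCl 6 h B was left out and 0.05 when sorbitol 6 h C was. The difference of dip depths and the difference of the 0 h groups were called for 0 members under every setting.

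Over all probes, calls for NaCl 24 h minus 0 h numbered 397 (181 higher, 216 lower), but 709 with the block, 628 with row bands levelled, 19 (13 higher, 6 lower) under median scaling, 3 in the authors' values and 38 to 564 when 1 sample was left out. For sorbitol 24 h minus 0 h they numbered 831 (426 higher, 405 lower), but 1067 with the block, 536 without sorbitol 6 h A and sorbitol 24 h C, 377 (232 higher, 145 lower) under median scaling, 350 without the 4 arrays of lowest signal, 178 in the authors' values and 459 to 939 with 1 sample left out. For the difference of dip depths they numbered 7, but 41 without those 2 sorbitol arrays, 34 with the block, 24 among probes at or above the level limit, 11 with row bands levelled, 4 with foreground medians, 1 under median scaling, 1 without the 4 arrays, 0 in the authors' values (204 at an unadjusted p under 0.05), and 1 to 71 with 1 sample left out, the highest count being that without NaCl 0 h C and the lowest lacking NaCl 6 h B. For the 0 h groups they numbered 81 (32 higher, 49 lower), but 141 with the block, 136 at the level limit, 54 with an offset of 16, 50 without the 4 arrays, 42 (3 higher, 39 lower) under median scaling, 9 in the authors' values, and 24 to 289 with 1 sample left out, the highest again lacking NaCl 0 h C. For the 24 h changes they numbered 220 (89 higher, 131 lower), but 350 with the block, 317 (160 higher, 157 lower) with row bands levelled, 83 without the 4 arrays, 59 (10 higher, 49 lower) under median scaling, 11 in the authors' values and 75 to 308 with 1 sample left out. Levelling row bands, leaving out the 2 sorbitol arrays and the test of the 24 h changes were added after seeing the data. A slide or scan batch was not run as a block, since the files used give none. Signal limits the 6 h values most: 25 of 44 members were detected on all 6 of the 6 h arrays.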
